A study of Malus hupehensis with 3 samples.

Results

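Juvenile leaves of *Malus hupehensis*, an apple species used as a rootstock, are described here by 2 of the 3 libraries of the study, the small RNA library and the degradome library of the juvenile phase (J), and the adult small RNA library was not used. The aim is to set the abundance of each known miRNA family in J beside the cleavage sites that the degradome of the same phase listed for it. Degradome sequencing reads the 5′ ends of uncapped RNA fragments, so a cut mRNA appears as reads that begin at a single base. Known miRNAs were those with an apple name (mdm-miR), and miRNAs predicted by the authors were left out unless stated. The J list held 380 entries, of which 208 carried known names, and these came down to 85 distinct mature sequences in 43 families. The degradome list held 2204 records, of which 1525 named a known miRNA, and these fell on 129 of the 271 gene models in the list.

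The leaves came from 18 trees that were 6 years old, with the juvenile leaves taken at the base of the tree and pooled. Each library stands alone, with no replicate, so no test between groups and no spread between samples can be given, and rank correlations over families are descriptions of these libraries. The site count of a record was taken to be the degradome reads that begin at the site. The smallest site count in the list was 25, so a family without a record may still have sites of fewer reads. The lists hold no marker genes of leaf cells, so the tissue label was not checked. The depth of the degradome library was not used here, and site counts were compared only within it.

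Plant miRNAs guide ARGONAUTE proteins to mRNAs that pair with them along nearly their whole length. The mRNA is usually cut opposite bases 10 and 11 of the miRNA, counted from its 5′ end, and the 3′ fragment then begins with the base opposite base 10. Many of the oldest plant families act on transcription factors, such as miR156 on SBP-box genes, miR160 and miR167 on auxin response factors, miR166 on HD-ZIP III genes and miR172 on AP2-like genes. In leaves, miR156 is known for keeping a shoot in its juvenile phase through the SBP-box genes.

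The mature sequences on which the results turn are shown first, as they stand in the deposited lists, with the seed (bases 2 to 8) in capitals. They are the forms of miR156, miR171 and miR172 that met the same sites, the most-read miR482 sequence, which had no record, beside the miR482 forms that had records, the families with the largest site counts, and miR828, which had a target with a single read in J.
mdm-miR156ab: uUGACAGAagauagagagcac
mdm-miR156t: uUGACAGAagagagagagcac
mdm-miR156a: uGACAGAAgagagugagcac
mdm-miR156x: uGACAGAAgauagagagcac
mdm-miR171a: uUGAGCCGcgucaauaucucc
mdm-miR171c: uGAUUGAGccgcgccaauauc
mdm-miR172d: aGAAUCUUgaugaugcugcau
mdm-miR172a: aGAAUCUUgaugaugcugca
mdm-miR482a-5p: aGGAAUGGgcuguuugggaaga
mdm-miR482b: uCUUUCCUaucccucccauucc
mdm-miR482c: uCUUUCCUaacccucccauucc
mdm-miR160a: uGCCUGGCucccuguaugcca
mdm-miR858: uUCGUUGUcuguucgaccuga
mdm-miR167b: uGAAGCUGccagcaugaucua
mdm-miR828a: uCUUGCUCaaaugaguauucca
The 20-base forms of miR156 lack the first U of the 21-base forms, so their seeds are shifted by 1 base, and the forms of miR171 are shifted by 3 bases. mdm-miR482b and mdm-miR482c share a seed, which is not that of mdm-miR482a-5p.

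The sites on the target mRNAs that carry these results are shown next, from the 5′ end of the paired stretch, with capitals on the last base before the site and on the first base of the 3′ fragment. Positions count from 1 at the start of the coding sequence of the gene model, and no genome position was used.
SBP-box gene MDP0000119458, base 1038: gtgctctctCTcttctgtcag
SBP-box gene MDP0000119458, base 1039: gtgctctctcTCttctgtcag
SPL2 gene MDP0000155354, base 1146: gtgctctctCTcttctgtcaa
GRAS gene MDP0000151144, base 1388: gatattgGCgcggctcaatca
GRAS gene MDP0000151144, base 1391: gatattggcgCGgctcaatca
ARGONAUTE1-like gene MDP0000161046, base 545: ttcccGAcctgcaccaagcga
ARGONAUTE1-like gene MDP0000161046, base 550: ttcccgacctGCaccaagcga
ARF17 gene MDP0000232116, base 1313: gggcatgcagGGagccaggca
MYB gene MDP0000318013, base 243: ccaggccgaaCAgacaatgaa
MYB66 gene MDP0000124555, base 379: tggaattctcaTTtgagcaaga
MDP0000211316, base 634: gggatgggaggTAtgggaaaga
The first pair of lines shows that neighbouring sites of an SBP-box mRNA lie inside the same miR156 pairing, and the GRAS and ARGONAUTE1-like genes show the same for miR171 and miR168.

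Of the 43 families, 25 had at least 1 degradome target and 18 had none. The 25 families with a target had a median of 404 reads in J, from 1 to 543020, and the 18 without a target had a median of 173 reads, from 0 to 12581. All families without a target lay below the upper end of the range of those with a target, and both groups held rare families. Every family with a target had at least 1 read in J, and 2 of the 43 families had no read. Among the 17 families of 1000 or more reads, 10 had a target and 7 had none. Of the 8 families of at least 100 and under 1000 reads, 6 had a target, and of the 18 families under 100 reads, 9 had a target and 9 had none. Families with a target held 97.1% of the 1538846 reads of known miRNAs in J, and the families without a target held 44224 reads. Families without a target thus stood among the abundant and the rare ones.

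**Figure D1:**
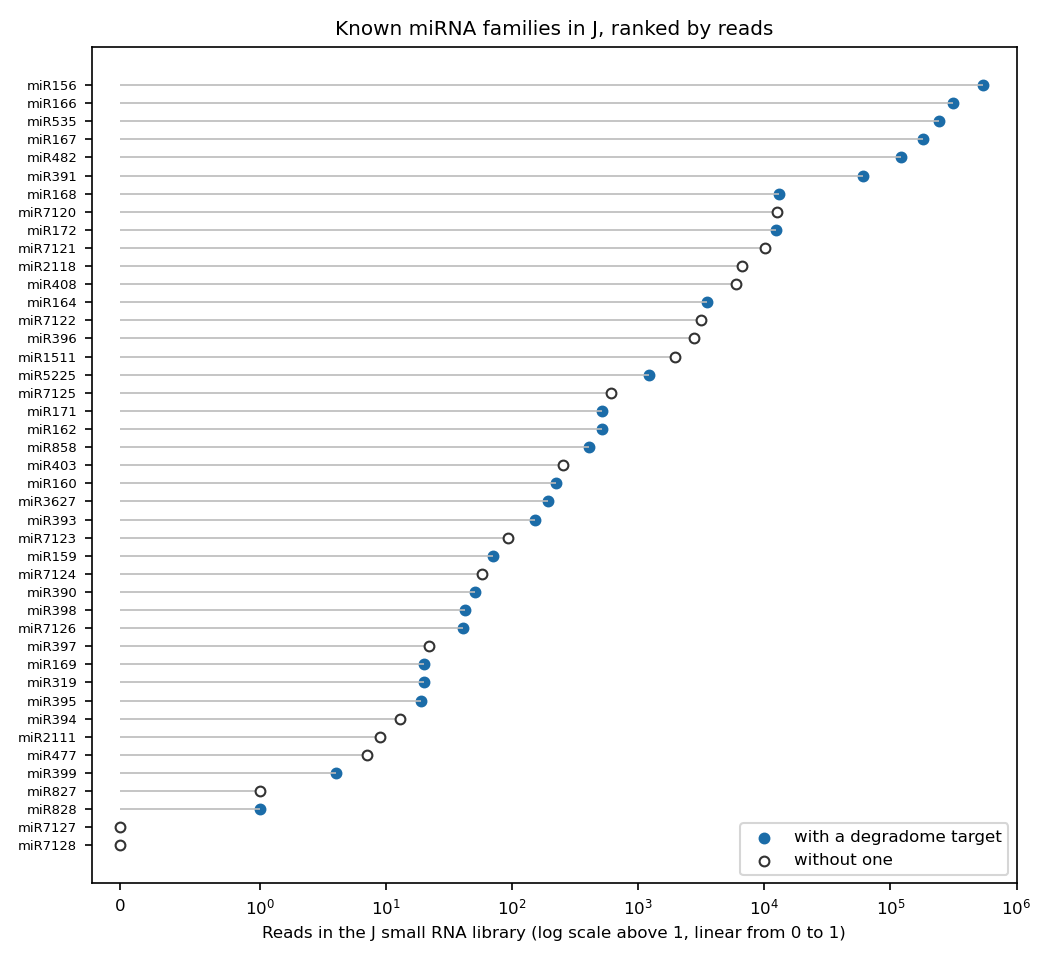
Reads in the J small RNA library of the 43 known families, with the most abundant at the top and reads on the horizontal axis (log scale above 1). Filled points are the 25 families with a degradome target and open points the 18 without, and open points reach 12581 reads (miR7120).

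The 6 families with the most reads all had a target. miR156 had 543020 reads, miR166 had 312715, miR535 had 244482, miR167 had 180793, miR482 had 120897 and miR391 had 60184. The abundant families without a target began at rank 8 with miR7120, at 12581 reads. It was followed by miR7121 with 10121 reads, miR2118 with 6599, miR408 with 5964, miR7122 with 3160, miR396 with 2785 and miR1511 with 1955. miR408 is known for acting on copper proteins of the laccase and plantacyanin kind, miR396 on growth-regulating factors and miR2118 on disease resistance genes, and no such pairing was listed for these families here. Fewer reads did not keep a family from having a target. miR828 had 1 read, miR399 had 4, miR395 had 19, and miR169 and miR319 had 20 each, and all of these families had a listed site.

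The order of families by largest site count was not the order by reads. miR160, which acts on auxin response factors, had the largest count, 1661, with 223 reads in J. miR858, which acts on MYB genes of phenylpropanoid metabolism, came next with a count of 1555 and 404 reads, followed by miR167 with 1375 and 180793 reads. Between these 3 families the reads thus differed far more than the counts. miR172 had a largest count of 1112 with 12433 reads, miR164 one of 845 with 3501 reads, miR393 one of 796 with 152 reads and miR171 one of 793 with 520 reads. miR156, the family with the most reads, was eighth with 677. miR169 had 365, miR166 330, miR159 and miR319 321 each at the same site, miR168 297 and miR828 285. The other 11 families had largest counts from 27 (miR399) to 175 (miR162).

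**Figure D2:**
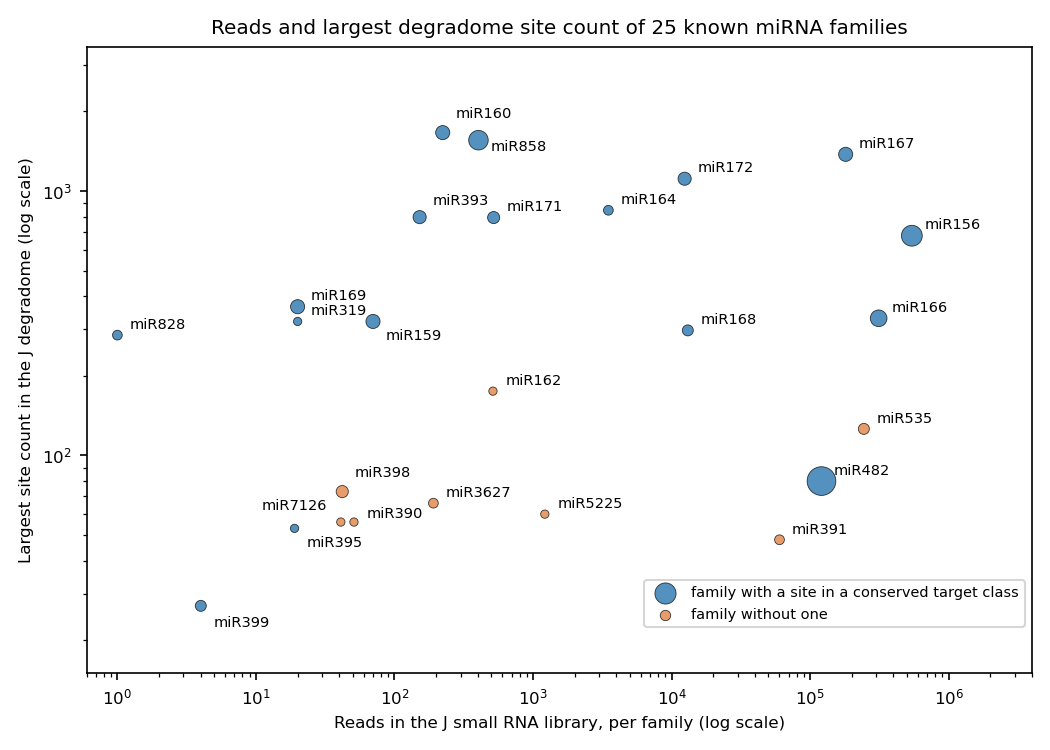
Reads in J (horizontal, log scale) and the largest site count in the J degradome (vertical, log scale) of the 25 families with a target, with point area growing with the number of target gene models. miR160 (223 reads, count 1661) and miR828 (1 read, count 285) lie far to the left of miR535 (244482 reads, count 126).

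The reads of a family were also divided by its largest site count. miR535 had 1940 reads for each read of its largest site, miR482 had 1511, miR391 had 1254, miR166 had 948 and miR156 had 802. At the other end, miR828 had 0.0035 reads for each, miR169 had 0.055, miR319 had 0.062 and miR160 had 0.134. For 13 of the 25 families the largest site had more degradome reads than the family had small RNA reads. The libraries differ in depth and in method, so these quotients order the families and have no meaning as molar ratios.

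Over the 25 families, which share 1 small RNA library and 1 degradome library, Spearman's rho of reads in J was 0.44 with the number of target gene models and 0.32 with the largest site count. It was -0.30 with the lowest score, where the score is the authors' penalty for mismatches from 0 to 4, and -0.17 with the median relative position of the sites. These are weak relations of 25 points, and no replicate allows an error to be given for them. The number of gene models and the largest site count of a family had a rho of 0.60. Across the 81 distinct sites, where gene models that shared both the count and the bases downstream of the site were taken as 1 site of the family, and 2 places listed for 2 families each were kept under both, the rho of site count was 0.03 with family reads, -0.13 with score and 0.19 with relative position. The 49 mature sequences that had a record gave a rho of -0.08 between their reads and their lowest score.

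The 1525 records of known miRNAs described 159 combinations of a gene model, a family and a site. Site counts ran from 25 to 1661 with a median of 76. Gene models of the same gene family often carried the same count, since 42 of the counts were shared by 2 or more gene models, and for 103 of the 129 gene models the largest count was shared. The deposited list does not say whether such reads were assigned to each copy, so counts of close copies are uncertain between them. The coding lengths ran from 195 to 6132 bases.

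Some member of the family had its base 10 opposite the site in 129 of the 159 combinations (81.1%), beside 21.7% of the 838 combinations of known and predicted miRNAs together. Among predicted miRNAs alone it was 53 of 679 (7.81%). Families held several members with different 5′ ends, which gave them more ways to meet base 10, whereas each predicted miRNA was counted by itself. When only the most-read member with a record was taken from each family, the site lay opposite base 10 in 106 of the 159 (66.7%). For 15 of the 25 families, among them miR160, miR166, miR167, miR172, miR393, miR482 and miR858, every combination was opposite base 10 of a member. For miR3627, miR390, miR399, miR319, miR5225 and miR7126 none was.

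miR156 had 15 target gene models, 14 of them SBP-box genes, which encode the transcription factors that promote the adult phase. The member with the most reads, mdm-miR156ab, had 446199 reads in J, the 20-base mdm-miR156a had 61710, mdm-miR156t had 20615, and mdm-miR156x had 7244. The 21-base mdm-miR156p had the same 7244 as the 20-base mdm-miR156x, and entries of the mdm-miR156a sequence ran from 40353 to 61710. How well these counts separate the forms is therefore uncertain. In 4 SBP-box gene models (MDP0000119458, MDP0000171877, MDP0000193702 and MDP0000246046), counts of 102, 677 and 120 stood at 3 consecutive bases. The middle base, with 677, lay opposite base 10 of the 20-base members and base 11 of mdm-miR156ab. The next base, with 120, lay opposite base 10 of the 21-base members. The largest counts of this site therefore fell in the register of the 20-base forms, which were less abundant by the listed reads.

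The same order held in some SBP-box genes and not in others. SPL9 gene MDP0000297978 had 41, 97 and 32 reads at its 3 consecutive bases, and SPL9 gene MDP0000322647 had 55 and 28, with the larger count again opposite base 10 of mdm-miR156a. SBP-box genes MDP0000210138 and MDP0000263766 had 138 and 104 in the same order. MDP0000176265 had 45 opposite base 10 of mdm-miR156a and 69 opposite base 10 of mdm-miR156ab, the reverse order, and MDP0000142582 had a single site of 34 in the register of mdm-miR156ab. SPL2 gene MDP0000155354 had 53 and 60, of which 60 lay opposite base 10 of mdm-miR156a. The acyl-CoA synthetase 5 gene model MDP0000249364 carried the same counts and the same bases as SPL2, so its listing cannot be told apart from that of SPL2. Summed over the 16 distinct sites of the family, 1124 reads (65.8%) lay opposite base 10 of mdm-miR156a, 387 (22.7%) opposite its base 9 and 196 (11.5%) opposite its base 11. For mdm-miR156ab the same reads lay at bases 11, 10 and 12.

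miR171 acts on GRAS genes of the HAIRY MERISTEM group, which maintain meristems, and had 4 GRAS gene models. In MDP0000151144 and MDP0000784909 the count was 793 at the first site and 76 at a site 3 bases downstream. In MDP0000274120 and MDP0000275704 the counts were 39 and 32. The first site lay opposite base 10 of mdm-miR171a, which had 439 reads, and opposite base 13 of mdm-miR171c, which had 66 reads. The second lay opposite base 10 of mdm-miR171c and base 7 of mdm-miR171a. Over the distinct sites, 832 reads (88.5%) were in the register of mdm-miR171a and 108 (11.5%) in that of mdm-miR171c, although mdm-miR171c had the lower score, 0 against 2. For miR171, unlike miR156, the larger count was thus in the register of the more abundant form.

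**Figure D3:**
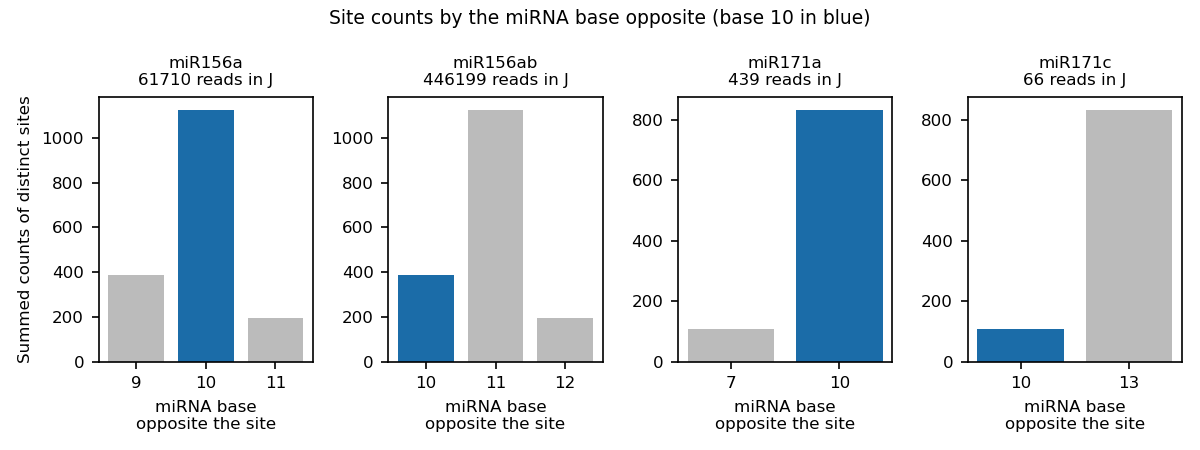
Summed counts of distinct sites (vertical) by the miRNA base opposite the site (horizontal) for 2 members of miR156 and 2 of miR171, with base 10 in blue. Base 10 holds 1124 reads for mdm-miR156a (61710 reads in J) and 387 for mdm-miR156ab (446199 reads), and 832 for mdm-miR171a (439 reads) and 108 for mdm-miR171c (66 reads).

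The most-read sequence with a record was often not the one with the best pairing. In the 10 families that had more than 1 sequence with a record, the most-read of these had the lowest score, alone or shared, in 16 of 96 combinations. miR482 and miR156 supplied most of the 96. For miR482 it was so in 1 of 30, but its sequences with a record had only 33 and 29 reads, nearly the same abundance. For miR156 the most-read sequence had the lowest score in 0 of 31 combinations, for miR171 in 0 of 8 and for miR172 in 0 of 5. For miR535 it was so in 3 of 3, for miR164 in 2 of 2 and for miR167 in 4 of 6. Altogether 31 sequences with reads had no record, and 4 sequences with a record had 0 reads in J. The sequences with a record held 89.3% of the reads of known miRNAs.

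miR482, which acts on disease resistance genes of the NBS-LRR kind, had the most target gene models, 30, and a largest site count of 80. The reads of the family came from members without a record: mdm-miR482a-5p had 109535 reads, mdm-miR482d had 6231 and mdm-miR482a-3p had 5069. The members with records were mdm-miR482b, with 29 reads and 29 gene models at a lowest score of 2, and mdm-miR482c, with 33 reads and 26 gene models at a lowest score of 3. All 30 sites lay opposite base 10 of a member, and they formed 8 distinct sites with counts of 36 to 80. Of the 30 gene models only MDP0000210772, a TIR-NBS-LRR gene with a count of 37, was annotated in the target tables used here. Counted by the 62 reads of the members with records, miR482 would stand among the rare families.

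Auxin response factors, which turn auxin levels into transcription, were listed for miR160 and miR167. The ARF17 gene models MDP0000232116 and MDP0000256621 had the largest count, 1661, at a score of 1.5, and a GrpE co-chaperone model, MDP0000273491, shared it. The ARF16 gene models had 105 (MDP0000750392, score 0.5) and 43 (MDP0000131481 and MDP0000221322, score 1). The better paired ARF16 sites therefore had fewer reads than ARF17. For miR167, ARF8 gene MDP0000232417 and ARF19 gene MDP0000268306 shared 1375, ARF6 genes MDP0000153538 and MDP0000319957 shared 1329, and MDP0000137461 (ARF8) and MDP0000550049 (ARF6) shared 624. The ARF6 sites of 1329 had a score of 4, the highest penalty in the list. miR393, which acts on the auxin receptors of the TIR1/AFB group, had 796 at MDP0000125975 and 48 at MDP0000498419, both with the Arabidopsis locus of TIR1, and 568 at 3 AFB gene models.

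Transcription factors of leaf form and flowering time were targets of miR166, miR172 and miR164. miR166 had 9 gene models, all HD-ZIP III genes, which set the upper side of the leaf. The homeobox-leucine zipper models MDP0000050082 and MDP0000943529 had the largest count, 330, and MDP0000426630 had 281. miR172 had 5 AP2-like gene models, which repress flowering, with 1112 at MDP0000181606 and MDP0000296716, 857 at MDP0000200319, 476 at MDP0000137561 and 25 at MDP0000163645. The largest count was thus 44.5 times the smallest among these AP2-like genes. At the pair of gene models with 1112, mdm-miR172a, with 42 reads and without the last base of mdm-miR172d, had a score of 0.5, and mdm-miR172d, with 12330 reads, had 1.5. The 21-base mdm-miR172m, which is mdm-miR172a with a last g, also had 0.5 there. Its listed count was 42 as well, so whether these are the same reads is uncertain. At the other 3 gene models mdm-miR172a had 1.5 and mdm-miR172d 2.5, and the lowest score there, 0.5, was that of mdm-miR172l, which had 0 reads in J. miR164 had NAC1 genes MDP0000298182 and MDP0000528658 at 845, where mdm-miR164a had 1 read and the form of mdm-miR164b 3500.

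MYB genes were listed for 4 families, of 404 reads or fewer. miR858 had 13 gene models, all MYB genes, led by MDP0000318013 at 1555, which carries the Arabidopsis locus of MYB123, a regulator of seed coat tannins. MDP0000031172, MDP0000210851 and MDP0000437717 followed at 368. miR828, with 1 read, had MYB66 genes MDP0000124555 at 285 and MDP0000578193 at 130, both at a score of 1. MDP0000124555 also had a miR858 site, at base 345 with a count of 62. miR159 and miR319 were listed at the same base of MYB65 gene MDP0000147309, with the count of 321 opposite base 10 of mdm-miR159a (69 reads, score 2) and base 9 of mdm-miR319a (8 reads, score 3). The other 5 gene models of miR159 shared a count of 28 opposite base 11.

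The rare miR169, which acts on the NF-YA subunits of a CCAAT-binding complex, had a count of 365 at NF-YA9 gene MDP0000146933 and at MDP0000296077, and 100 at 3 NF-YA7 gene models. The members with records had 5, 7 and 0 reads. miR395 had ATP sulfurylase 1, an enzyme of sulfate assimilation (MDP0000263161, 53), and miR399 had 3 phosphate transporter gene models at 27, opposite base 9 and at a score of 4. miR168, which acts on ARGONAUTE1, had 297 at base 545 of MDP0000161046, opposite base 15, and 69 at base 550, opposite base 10, while both carried a score of 0. The larger count of this mRNA was thus 5 bases from the usual place.

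Sites in the target classes known from other plants had the higher median count. Such conserved classes held 100 of the 159 combinations (62.9%), 78 gene models and 17 families. Their 55 distinct sites had a median count of 105 (25 to 1661), against 56 (31 to 175) for 10 sites in other annotated genes and 49 (25 to 80) for 16 sites in genes without annotation. Of the conserved sites 89.1% lay opposite base 10 of some member, against 30% of the other annotated sites and 62.5% of those without annotation. Over all 81 distinct sites the share was 76.5%. Some of the conserved sites, of miR156 and miR171, met base 10 only of a form with fewer reads than the most-read one. The sets of sites depend on the annotation. Only 1 of the 30 miR482 gene models was annotated, so most of the 8 distinct miR482 sites counted as sites without annotation. The 2 distinct miR398 sites also counted there, although each was shared with an annotated gene model. Among the other annotated sites, 4 were miR390 sites of 1 gene model. The highest count outside the conserved classes was 175, at the LETM1-like gene MDP0000187512 of miR162, apart from the GrpE model that shared the ARF17 count. miR162 is known for acting on DICER-LIKE1, miR398 on copper superoxide dismutases and miR390 on TAS3 transcripts. None of their annotated gene models was of these kinds, and of the 4 gene models of miR398 only 2 were annotated. TAS3 transcripts are noncoding and the gene models hold coding sequence only, so a TAS3 site could not be listed. Abundant families were among those outside the conserved classes as well. miR535 had 126 at base 19 of RD19 gene MDP0000189200, a papain-type cysteine protease, and miR391 had 48 at 2 transmembrane protein 14C gene models. Families under 100 reads had 7 distinct conserved sites, with the MYB65 site of miR159 and miR319 counted once, and their median count was 130 (27 to 365).

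The median count did not follow the order of the scores. The 30 distinct sites with a score of at most 1 had a median count of 72.5 (25 to 1112), the 6 with 1.5 to 2 one of 200.5, the 27 with 2.5 to 3 one of 126 (26 to 1555), and the 18 with 3.5 or 4 one of 52.5 (25 to 1375). The share opposite base 10 was 86.7% in the first of these sets, 92.6% in the third and 33.3% in the last. By family abundance, distinct sites had a median count of 69 for families of 1000 or more reads, 76 for at least 100 and under 1000 reads and 56 for fewer than 100 reads. The share opposite base 10 was 88.4%, 76.2% and 47.1% in the same order of abundance, beside 62 of all 81 distinct sites (76.5%). All these shares count a site opposite base 10 of any member, which favours families with several 5′ ends. Of the 16 distinct sites of miR156, 13 were opposite base 10 of some member, but 6 opposite that of its most-read form, mdm-miR156ab. The sets by abundance depend on how reads are assigned, since miR482 is placed by reads of sequences without a record. With families placed by the reads of sequences with a record, an alternative chosen after seeing the data, the shares were 85.7% of 35 sites, 72.2% of 18 and 67.9% of 28, and the median counts were 97, 71 and 55.5. Sites of a family are not independent of each other.

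Within the listed pairings, mismatches and wobbles were most frequent near the ends and at base 14. At the 81 distinct sites, with the lowest-scoring member at each, base 6 was in a Watson-Crick pair in 98.8%, base 12 in 97.5% and base 10 in 95.1%. Base 1 was paired in 77.8% and base 14 in 74.1%. Of the 67 sites whose member reached base 21, 70.1% paired there. A pairing with several neighbouring sites entered once for each site, as for miR156, miR390 in MDP0000145463 and miR3627 in MDP0000278575. Single pairings thus weigh on some bases: the mismatches at base 10 all came from the miR390 pairing. The score itself counts mismatches, so these shares describe the listed pairings.

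**Figure D4:**
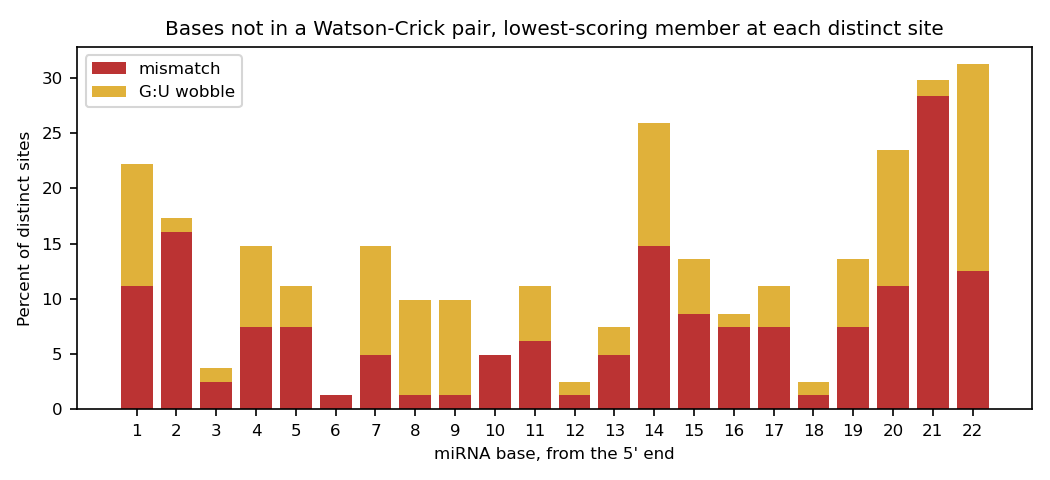
Percent of distinct sites with a mismatch or a G:U wobble (vertical, stacked) at each base of the miRNA from its 5′ end (horizontal), with the lowest-scoring member at each site. Base 14 is outside a Watson-Crick pair more often than any other base from 2 to 20, and base 6 least often.

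The position of the sites in the coding sequence differed between families. The sites of miR166 lay at 20.01% to 36.0% of the coding length, whereas those of miR172 lay at 88.8% to 95.0%, of miR167 at 83.4% to 96.8%, of miR393 at 82.0% to 90.1% and of miR169 at 81.7% to 97.7%. miR858 lay at 26.9% to 57.1% and miR156 at 44.5% to 90.9%. The sites of miR482 were spread from 8.84% to 91.2%, and those of miR535 from 1.16% to 82.0%. Coding lengths of the gene models entered these values, and the gene models hold coding sequence only, since every length was a multiple of 3. Of the 13 families with 2 or more distinct sites opposite base 10, 11 had the first base of the 3′ fragment at the same codon base throughout, and miR156 and miR482 did not. For miR156 this came from its registers, since sites opposite base 10 of mdm-miR156a lay at codon base 3 and those of mdm-miR156ab at codon base 1.

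**Figure D5:**
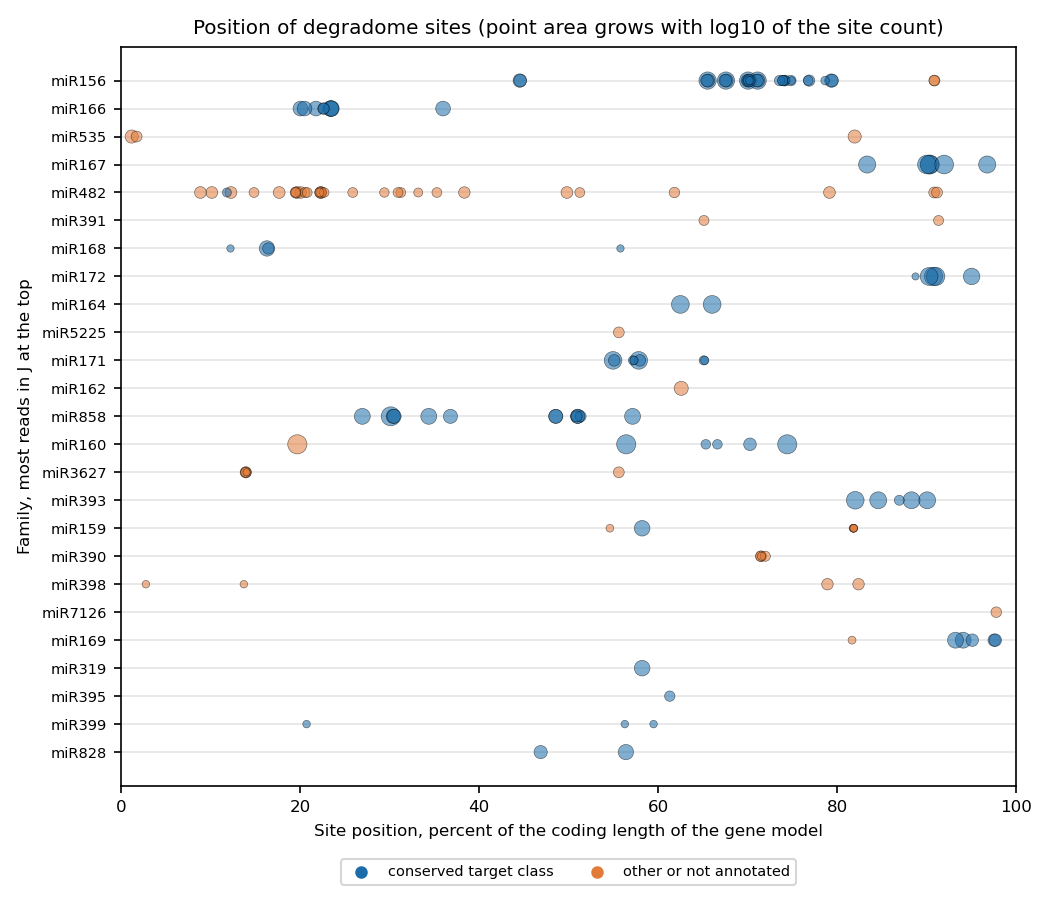
Position of every listed site as a percent of the coding length (horizontal) for the 25 families, with the most reads at the top and point area growing with the log10 of the site count. miR166 sites stay between 20.01% and 36.0%, and miR172 sites between 88.8% and 95.0%.

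Some sites were not particular to a known family. Of the 157 distinct places of known families, 42 were also listed for a predicted miRNA, such as the SBP-box sites of miR156 and the NF-YA sites of miR169. MDP0000258197, an autoinhibited Ca2+-ATPase, carried a count of 60 at base 729 for both miR3627 (base 9, score 2) and miR5225 (base 13, score 3). miR390 had 4 sites in an exocyst subunit gene, MDP0000145463, with counts of 53, 56, 31 and 49 opposite bases 17, 16, 15 and 7. miR3627 had 45, 66, 52 and 25 in MDP0000278575, opposite bases 13, 12, 11 and 9. These neighbouring counts had no peak at base 10. miR398 had its counts of 73 opposite base 14 and of 27 opposite base 10, and miR7126 had 56 opposite base 14 of an H(+)-ATPase 2 gene, MDP0000259837.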

How the data were processed

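The authors selected small RNAs, trimmed adapters and deposited unnormalized read counts per entry. They matched degradome fragments to apple gene models in PairFinder, and the deposited score is the authors' mismatch penalty. The deposited site count and position, other values of the authors, were used as listed. Names came from the study's list of known miRNAs. Names with 1 mature sequence were counted once, at the largest count, and families are sums over sequences. Where a sequence lies within a longer one, both were summed. Such pairs had equal counts for mdm-miR156x and mdm-miR156p (7244) and for mdm-miR172a and mdm-miR172m (42). The same reads may therefore enter a family total more than once. The site was placed at base 15 of the 31 listed bases, since the 3 records with a site at base 15 begin with ATG. Annotations of 89 of 129 gene models came from the study's target tables, and genes named by Arabidopsis locus were classed by it.

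Families, gene models and lists were chosen with earlier results of these data known. The naming rule took every family with a target, its gene model with the largest count, the next 2 for families of 5 or more gene models, families without a target of 1000 or more reads, and members that differ in score at the same site. Other gene models named were chosen after their values were seen. The exact 95% binomial interval of the share opposite base 10 was 74.2% to 86.9% and covers counting only. It takes the 159 combinations as independent, but they came down to 81 distinct sites, so it is too narrow as an error. It served only as a yardstick for the alternatives. Computation used Python 3.11.15, pandas 2.3.3, SciPy 1.17.1 and matplotlib 3.10.9. The rank correlation and the count of the miRNA base opposite the site were tested on small made-up examples.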

Additional observations from a re-analysis of the deposited data

How the results depend on the processing

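No paired analysis was possible because each library stands alone. Of 56 values under alternatives, 38 stayed within 0.1 of rho, 1.5 times a count or median, or the 95% interval of a share. With scores of at most 2, 10 families had a target, the rho of reads was 0.58 with gene models, 0.12 with largest count and 0.12 with position, the last with its sign changed, and the conserved share was 80.6%. With only sites opposite base 10, rho was 0.077 with largest count and -0.058 with score. With counts of at least 50, the rho with position was -0.28 and the conserved share 72.3%. Without families under 10 reads the rho with position was -0.27. Reads only of sequences with a record gave a rho with gene models of 0.31 and a median of 223 reads with a target, and no value for families without one. With families without a target included, the rho with gene models was 0.32. Summing all entries gave medians of 1028 with and 346 without a target. Bases 9 to 11 held 93.1% of combinations. Chosen after seeing the data, conserved classes alone gave a rho with position of -0.042, and the most-read member with a record gave 66.7% opposite base 10. The cause was not tested. Sites under 25 reads, the depth of the degradome and gene models of coding sequence only limit every statement on families without a target.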
